A study of Mus musculus with 4 samples.

Results

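The cells described here are brain microglia in whose barcodes genes of 2 transcript programmes were detected. These are the neurodegenerative, or disease-associated, programme (MGnD) and the interferon response. The cells were chosen by a rule on their own transcript molecules (UMIs, unique molecular identifiers). A barcode entered from 2000 UMIs and 500 genes upward, if its mitochondrial share did not exceed 10%. It was then selected on at least 1 UMI in at least 4 of 8 MGnD genes (Clec7a, Itgax, Lpl, Cst7, Igf1, Axl, Fabp5 and Baiap2l2) and in at least 4 of 10 interferon genes (Ifit1, Ifit2, Ifit3, Isg15, Rsad2, Usp18, Oasl1, Cxcl10, Slfn5 and Ifi204). Of 12883 barcodes kept, 763 passed both parts of the rule and are called double-called cells. The 2243 that passed the MGnD part alone are MGnD-only cells, the 818 that passed the interferon part alone are interferon-only cells, and 9059 passed neither.

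The series holds 4 single-cell RNA libraries (10x Genomics 3′ v3.1 chemistry) of CD11b+/CD45+ myeloid cells sorted from the left brain hemisphere. All mice were labelled female and 4 months old, and all were APP/PS1, which marks transgenes that drive amyloid plaques. In 2 libraries the genotype was APP/PS1:miR-155 cKO, a deletion of the microRNA miR-155 that the labels place in microglia, and 2 were APP/PS1 Control, called biological replicates in the labels. The labels do not give the Cre driver, the deleted part of the locus, or how many mice went into a library. Values per library are given in the order cKO replicate 1, cKO replicate 2, Control replicate 1, Control replicate 2.

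The capture was set for 5000 cells per sample, and filtering left 3585, 2666, 3999 and 2633 cells, at a median of 6412, 7431, 6509 and 6789 UMIs. Pairs of libraries shared between 0 and 4 barcodes, and no double-called cell shared its barcode with one of another library. The check of the deleted gene had little to read: Mir155hg, the host transcript of miR-155, had 0, 1, 1 and 3 UMIs in double-called cells. Control replicate 1 went against its label, since Xist, which is transcribed in female cells, had 2 UMIs in its double-called cells against 7439, 2541 and 5694 in the other libraries. The main shares, ratios, programme levels and gene counts are therefore also given without the library labelled Control replicate 1. In the deposited names cKO replicate 2 carried another run code than the other 3 libraries.

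Microglia around amyloid plaques leave their resting state and take up the MGnD programme, which depends on the lipid receptor Trem2 and on Apoe and raises genes of phagocytosis, lysosomes and lipid handling. The interferon programme follows from signalling through the interferon receptors to transcription factors that bind the interferon-stimulated response element. It raises antiviral genes such as the Ifit family and Isg15. Both programmes have been described in amyloid models as separate microglial states, and a cell could in principle hold both.

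The labelled cell type was checked against its markers. All 763 double-called cells had at least 3 of 12 microglia markers detected, with a summed level of 29694 to 33359 CPM (counts per 1000000) across libraries. Of the 10 markers of border-associated macrophages 3 (Cd163, Lyve1 and Cd209f) were at 0 and 7 were detected, among them Pf4 in 4.33% of double-called cells, Folr2 in 4.06%, Mrc1 in 3.15% (1.29% of MGnD-only cells) and Ms4a7 in 1.31%. At least 2 of the 10 were found in 11 double-called cells (1.44%), against 0.713% of MGnD-only, 1.22% of interferon-only and 0.276% of the remaining cells, and after thinning to 2000 UMIs in 0%, 0.134%, 0.244% and 0.121%. All 5 erythroid markers were at 0. At full depth 58.8% of double-called cells had at least 2 markers of some other class (57.8% at least 2 of other brain cells), against 43.1% of MGnD-only, 49.1% of interferon-only and 32.9% of the remaining cells. Thinned to 2000 UMIs per cell, those shares were 3.93%, 3.61%, 5.99% and 6.31%. The brain markers found most often at full depth were found in all states. In the same order Slc1a3 was detected in 68.8%, 57.9%, 74.6% and 65.8% of cells and Mbp in 44.2%, 32.7%, 25.4% and 15.5%. Mag was in 26.0%, 16.1%, 25.1% and 16.6%, and Flt1 in 21.8%, 16.7%, 1.34% and 0.828%. Snap25 and Gfap were in 0.131% and 0.524% of double-called cells. Such a mark alone does not show a mixed barcode. Barcodes marked as likely doublets made up 8.52% of double-called cells, 6.82% of MGnD-only, 1.71% of interferon-only and 1.23% of cells with neither call. Without the marked barcodes the equal-depth overlap ratio described below was 1.23 ± 0.33 (SD, n = 4), against 1.19 ± 0.33 with them. With all other-class barcodes left out, 13 double calls stood against 13.5 expected, and the ratio was 0.994 ± 0.73 (SD, n = 4), above 1 in 2 of 4 libraries.

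The promoters of the genes that define the cells show how the 2 sides of the rule differ in sequence. Windows of 300 bases (250 before and 50 after the gene start, RefSeq, GRCm38.p6) were read for 8 of the 10 interferon genes and 5 of the 8 MGnD genes. The core of the interferon-stimulated response element was searched as GAAANNGAAA on either strand, the reverse strand reading TTTCNNTTTC, and overlapping matches were kept. It stood in 6 of the 8 interferon genes (Ifit1, Ifit3, Isg15, Rsad2, Cxcl10 and Slfn5, not in Ifit2 or Oasl1), in 0 of the 5 MGnD genes and in 3.99% of the 27025 gene symbols with a window. Ifit3 and Isg15 are shown for the interferon side, and Cst7 and Axl, which encode a cathepsin inhibitor and a phagocytic receptor kinase, for the MGnD side. Capitals mark matches, which begin 156 and 122 bases before the start of Ifit3 and 78, 72 and 66 bases before that of Isg15.
Ifit3 (chr19:34583279-34583578, plus strand): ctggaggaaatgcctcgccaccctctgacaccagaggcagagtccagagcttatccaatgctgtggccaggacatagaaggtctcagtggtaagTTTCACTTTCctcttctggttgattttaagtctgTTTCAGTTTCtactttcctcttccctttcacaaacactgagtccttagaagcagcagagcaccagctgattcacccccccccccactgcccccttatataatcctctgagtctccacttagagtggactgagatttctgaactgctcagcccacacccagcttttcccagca
Isg15 (chr4:156200769-156201068, minus strand): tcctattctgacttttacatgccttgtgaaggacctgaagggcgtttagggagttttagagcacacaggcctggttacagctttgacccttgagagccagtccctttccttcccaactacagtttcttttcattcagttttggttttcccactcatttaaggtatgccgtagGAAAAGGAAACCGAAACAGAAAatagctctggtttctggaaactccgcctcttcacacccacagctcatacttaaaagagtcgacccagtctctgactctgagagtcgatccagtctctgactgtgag
Cst7 (chr2:150570165-150570464, plus strand): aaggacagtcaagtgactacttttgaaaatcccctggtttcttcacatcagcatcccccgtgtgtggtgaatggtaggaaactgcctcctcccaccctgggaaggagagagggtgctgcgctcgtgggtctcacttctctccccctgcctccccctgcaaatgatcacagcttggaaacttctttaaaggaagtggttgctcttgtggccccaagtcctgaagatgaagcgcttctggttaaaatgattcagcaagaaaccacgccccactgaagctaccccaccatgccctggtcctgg
Axl (chr7:25788684-25788983, minus strand): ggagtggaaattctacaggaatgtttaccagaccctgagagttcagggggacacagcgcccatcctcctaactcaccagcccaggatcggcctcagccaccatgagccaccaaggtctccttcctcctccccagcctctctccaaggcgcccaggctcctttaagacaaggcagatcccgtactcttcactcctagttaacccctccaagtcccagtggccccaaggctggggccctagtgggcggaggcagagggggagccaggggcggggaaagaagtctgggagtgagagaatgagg
Beyond the rule, the core stood in 20 of 41 other interferon-stimulated genes with a window (48.8%), in 9 of 12 interferon-gamma GTPase and target genes, in 3 of 35 other MGnD genes (8.57%) and in 0 of 15 homeostatic microglia genes. A match describes these letters only.

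Double-called cells made up 5.41% of cKO replicate 1 (95% exact binomial interval 4.69 to 6.2, counting error only), 3.45% of cKO replicate 2 (2.79 to 4.22), 7.03% of Control replicate 1 (6.25 to 7.86) and 7.44% of Control replicate 2 (6.47 to 8.51). They were the deepest cells of the series. Their median was 16103 UMIs, against 11588 in MGnD-only, 8647.5 in interferon-only and 6016 in cells with neither call. When each library was cut into 10 equal classes by depth, their share was 0.465% in the shallowest class, 0.543% in the fifth, 6.68% in the seventh and 26.0% in the deepest. A deeper barcode passes a rule on detected genes more easily, so the depth of the cells and their membership cannot be read apart from the raw share.

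**Figure D1:**
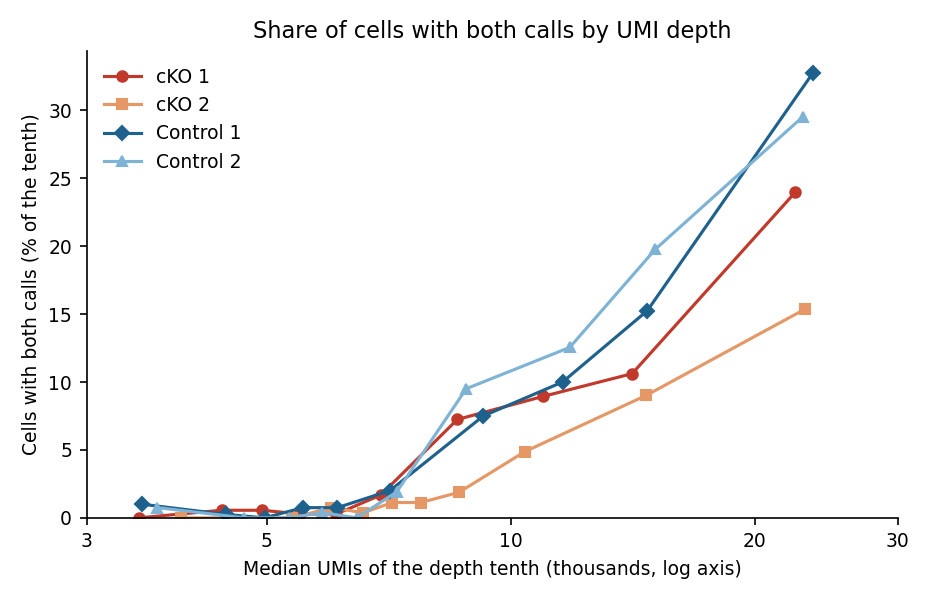
Share of double-called cells (vertical axis, % of the cells in a depth class) against the median UMIs of each class (horizontal log axis), 1 line per library. The pooled share is 0.465% in the shallowest class and 26.0% in the deepest, and cKO replicate 2 ends lowest.

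Many cells stood close to the edge of the rule. Exactly 4 MGnD genes were detected in 161 double-called cells and exactly 4 interferon genes in 249, and 356 of the 763 (46.7%) were at the edge on at least 1 side. Just outside, 122 cells had 3 of 8 MGnD genes with a full interferon call, and 367 had a full MGnD call with 3 of 10 interferon genes. At the other end, all 8 MGnD genes were detected in 114 double-called cells, all 10 interferon genes in 14, and at least 6 on both sides in 180, whose median depth was 19599.5 UMIs. After thinning to 2000 UMIs, 28 of the 763 passed both calls, 229 passed the MGnD call, 96 the interferon call and 466 passed neither.

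The rule gives the overlap at raw depth, and the question that follows is how many double calls independent calls would give. At raw depth the 763 double-called cells stood against 370 expected from the 2 call rates within each library, 2.06 ± 0.072 times as many (SD, n = 4 libraries). At equal depth most of that excess was gone. With every cell thinned to 2000 UMIs, 28 cells were double-called where 23.8 were expected, and the ratio was 1.10, 0.964, 1.03 and 1.68 in the 4 libraries, 1.19 ± 0.33 (SD, n = 4). Pooled, the ratio was 1.18 with a 95% exact Poisson interval of 0.782 to 1.70, so at this depth an excess was not detectable, and without Control replicate 1 the mean was 1.25.

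Deeper thinning, chosen after seeing these data, gave more double calls and a narrower spread. At 5000 UMIs, over 10114 cells, 188 were observed and 136 expected, a ratio of 1.39 ± 0.075 (SD, n = 4) with a pooled interval of 1.19 to 1.59. At 10000 UMIs, over 3879 cells, 371 stood against 307, 1.2 ± 0.08 (SD, n = 4), pooled interval 1.09 to 1.34. With raw calls and the expected number summed over 10 depth classes, the ratio was 1.2 ± 0.08 (1.27, 1.19, 1.24 and 1.09), and over 50 classes 1.17 ± 0.0625. All 4 libraries lay above 1 in each of these 4 settings, and the smallest p that a two-sided exact sign-flip permutation over 4 libraries can give, 0.125, was what each of them gave. Asking for 3 genes of each list at 2000 UMIs gave 1.40 ± 0.12 (115 observed, 80.4 expected), and asking for 5 gave 1.03 ± 0.12 (7 observed, 6.62 expected). Leaving out Axl, the MGnD gene that interferon is also known to raise, gave 1.02 ± 0.42 at 2000 UMIs (20 observed, 18.4 expected).

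**Figure D2:**
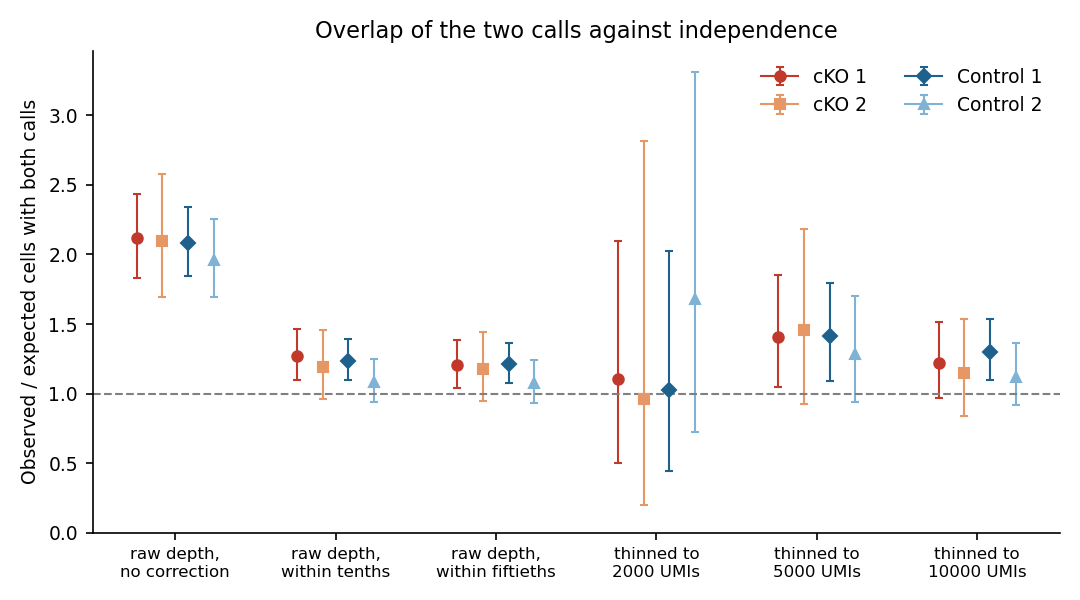
Observed over expected number of double-called cells (vertical axis, ratio) under 6 ways of treating depth, 1 point per library with its 95% exact Poisson interval, and a dashed line at 1. Ratios average 2.06 without a depth correction and 1.17 to 1.39 with one, and the thinning to 2000 UMIs has the widest intervals.

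Free RNA in the droplets adds UMIs of both programmes. Barcodes of at most 100 UMIs held 14.9%, 17.8%, 11.2% and 16.3% of each library's UMIs. Calculated from their profile, 2000 UMIs of free RNA alone would be double-called in at most 0.00259% of droplets, while 0.150% to 4.08% would pass the MGnD call. A second calculation assumed a droplet as deep as the median double-called cell of its library, with free RNA at the share above. On free RNA alone it would pass the MGnD call in 0.632% to 8.33% of cases and both calls in at most 0.0136%, with Control replicate 2 the highest. Both calculations take the genes as independent. The assumed share is that of a whole library, and the share of free RNA within a cell was not measured, so these values are no estimate for the cells. Barcodes with monocyte markers were also read. Among 49 barcodes with at least 4 of 10 such markers (median 8854 UMIs), 6.12% passed the MGnD call and 22.4% the interferon call. Of 3038 other cells of like depth (median 9246.5 UMIs), 35.4% and 13% did. Of these 49 barcodes, 3 were double-called and 0 were MGnD-only. They held a median of 6 microglia markers against 13 in the other cells, so they are no background free of microglial RNA. Cst7 was at 59, 35.9, 70.9 and 97.7 CPM in interferon-only cells, and pure free RNA held 351, 142, 547 and 510 CPM. Free RNA makes up only part of a cell's UMIs, so these levels are not like for like. How much of the Cst7 in these cells was free RNA was not tested.

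Cells called on one programme were then measured on the other. The call did not use the genes measured, but these are rule genes too, which chose the double-called cells. The reading therefore describes the same overlap by level and is no separate support for it. Cxcl10 was part of the interferon sums, and no sums without it are given. The summed interferon rule genes stood at 454, 516, 399 and 389 CPM in cells with an MGnD call and at 363, 425, 262 and 267 CPM in cells without one. That is 0.44 ± 0.16 higher on the log2 scale (SD, n = 4), higher in 4 of 4 libraries, with the smallest p that the exact sign-flip permutation allows (0.125). With calls made after thinning to 2000 UMIs the difference was 0.36 ± 0.074, and among cells of at least 10000 UMIs it was 0.27 ± 0.30, of which Control replicate 1 had 0.724 and the other libraries 0.108 to 0.133. Without Control replicate 1 these 3 differences were 0.38, 0.36 and 0.12. The reverse reading depended on depth more. The MGnD rule genes were 0.52 ± 0.17 higher in cells with an interferon call, 0.18 ± 0.034 higher with calls at 2000 UMIs, and 0.015 ± 0.10 among cells of at least 10000 UMIs, where 2 of 4 libraries were above 0 (exact sign-flip p = 0.75). Without Control replicate 1 they were 0.54, 0.19 and 0.0020.

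The share of cells with 3 or more interferon genes did not rise steadily with the number of MGnD genes. At 2000 UMIs it was 3.43% ± 0.505 (SD, n = 4) in cells with no MGnD gene, 5.10% ± 1.44 with 1, 6.80% ± 0.996 with 2, 6.81% ± 1.39 with 3, 5.35% ± 2.46 with 4, 5.37% ± 2.71 with 5 and 4.00% ± 2.75 with 6 or more. The last 2 classes held 296 and 145 cells, and single libraries ranged from 3.33% to 9.26% with 5 genes and from 0% to 6% with 6 or more. The mean was highest with 2 or 3 MGnD genes, and the libraries' values there (5.24% to 8.23%) overlap those of every class from 4 genes upward.

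Double-called cells held each programme at a lower level than the matching single state. This is a description of the genes that chose the cells, given with no test. Clec7a, a beta-glucan receptor and a defining MGnD gene, was at 369.7, 462, 450.3 and 489 CPM in double-called cells and at 564, 548, 616 and 607 CPM in MGnD-only cells, with no overlap. Cst7 was at 1061, 1354, 1314 and 1348 CPM against 1522, 1319, 1779 and 1532 CPM. Over the 8 MGnD genes the median level was 75.3% of that in MGnD-only cells, and 5 of the 8 were lower in all 4 libraries. Axl was the exception at 123, 204, 151 and 169.6 CPM against 139.7, 152, 146 and 152 CPM, 109% on average and lower in 1 library of 4.

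Over all cells the interferon side was lower still. Ifit3, an antiviral tetratricopeptide protein, was at 159, 149.8, 127 and 117 CPM in double-called and 357, 292, 299 and 183 CPM in interferon-only cells, again without overlap. Isg15, a ubiquitin-like modifier, was at 184, 195, 142 and 152 against 383, 341, 312 and 249 CPM. The median over the 10 interferon genes was 59.7% of the interferon-only level, and 9 of the 10 were lower in all 4 libraries. Cxcl10, a T cell chemokine, ranged from 28.8 to 241 CPM among the double-called sums, with 210 of its 425 UMIs in cKO replicate 2 from a single cell. In cells of at least 10000 UMIs the gap was narrower and the order of the programmes turned, with medians of 78.3% for the MGnD genes and 85.3% for the interferon genes. There 4 of the 10 interferon genes were lower in all 4 libraries and 4 of the 8 MGnD genes. Slfn5 averaged 105% of the interferon-only level in these deeper cells and was lower in 1 library, and Ifit2 averaged 97.4% and was lower in 2. Without Control replicate 1 the medians were 76.9% and 57.0% over all cells and 80.7% and 80.6% in the deeper ones. The part of depth in these gaps was not tested.

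**Figure D3:**
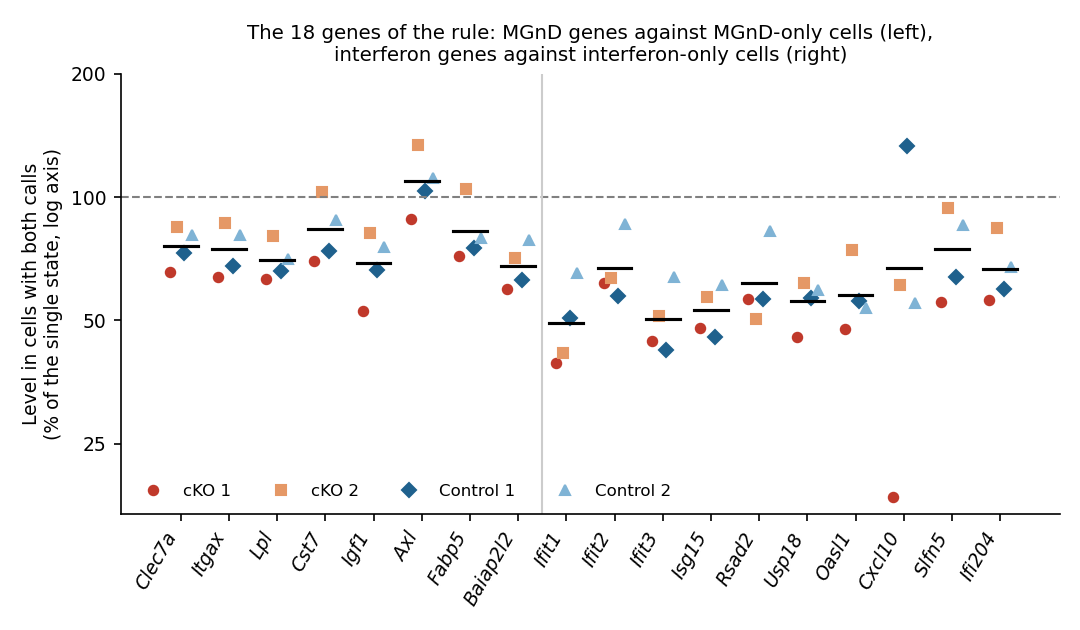
Level of each rule gene in double-called cells as a percent of the matching single state (vertical log axis), for the 8 MGnD genes against MGnD-only cells (left) and the 10 interferon genes against interferon-only cells (right). Points are libraries, black bars are the arithmetic means, and most points lie below the dashed line at 100, with Axl at 109% on average.

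Genes outside the 18 of the rule were compared on UMIs summed per library and state (edgeR's quasi-likelihood test, library as a block, Benjamini-Hochberg adjusted p under 0.05, CPM scaled by TMM factors). Against MGnD-only cells, 480 of 11495 genes were higher in double-called cells (4.18%) and 774 were lower (6.73%). The contrast is the one that the rule drew. Counts and p values for the programmes' own genes, here and below, therefore describe the cells and nothing is read from them. Of the 51 other interferon-stimulated genes tested, 49 were higher and 0 lower, with a median log2 difference of 1.08 against −0.020 over all genes. Irf7, the transcription factor that amplifies the interferon response, was at 49.4, 63.8, 49.4 and 55.1 CPM in double-called cells and 9.64, 12.9, 9.89 and 10.8 CPM in MGnD-only cells (log2 2.33 ± 0.12 SE, adjusted p = 2.44e-14). The antiviral synthetase-like Oasl2 was at 93.2, 119, 75 and 101 against 29.2, 32.7, 28.3 and 34.6 CPM. Both pairs of groups were fully apart. The other genes named by the rule for small p were Ifi209 (log2 1.96), Rnf213 (1.36), Rtp4 (1.33), Parp14 (1.19), Ifi207 (1.93) and Zbp1 (1.79), a sensor of left-handed nucleic acid.

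Signalling genes and targets of interferon gamma followed. Among 25 ligands, receptors and signalling genes of the interferon pathway 8 were higher and 1 was lower (median 0.13), and the higher ones included Stat2 (log2 1.28) and Irf1 (log2 0.66). Ifnb1, the gene for interferon beta, had 1 UMI in all double-called cells. Of 17 interferon-gamma GTPases and targets 14 were higher and 0 lower, with a median of 1.29. Iigp1, a GTPase of cell-autonomous immunity, was at 38.5, 88, 17.1 and 19.3 CPM against 1.51, 1.07, 2.17 and 1.68 CPM (log2 4.24 ± 0.34), and Irgm1 and Gbp7 of the same families were higher by 1.05 and 0.94. Of the chemokines, Ccl12 was higher (483, 772, 367 and 435 against 201, 222, 181 and 187 CPM), as was Fcgr1, the high-affinity receptor for IgG (log2 0.41 ± 0.049). Of 21 genes of MHC class I and peptide processing 3 were higher, among them the peptide transporter Tap1 (log2 0.59 ± 0.069), and 2 were lower.

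Most other genes of the MGnD programme were lower in double-called than in MGnD-only cells. Of 42 MGnD genes outside the rule 31 were lower and 0 higher (median −0.34). Apoe, a lipid carrier and a central MGnD gene, was at 6926, 8223, 6635 and 8722 CPM against 10878, 8835, 8849 and 12117 CPM (log2 −0.41 ± 0.071), and cKO replicate 2 had the smallest gap. The Apoe difference did not pass in cells of at least 10000 UMIs (log2 −0.28, adjusted p = 0.0866), with other-class barcodes left out (log2 −0.14, adjusted p = 0.757) or without the library block (adjusted p = 0.15). Spp1, osteopontin, was at 43.5, 48.4, 26.6 and 38.8 against 87.4, 52.8, 57.7 and 130.1 CPM (log2 −1.13 ± 0.14, adjusted p = 2.73e-06), with no overlap, and its adjusted p was 0.0534 by DESeq2. The log2 difference was −0.37 for the cathepsin gene Ctsl, −0.35 for Tyrobp, the Trem2 adaptor, and −0.28 for Trem2 itself. Of 28 lysosome and phagocytosis genes 13 were lower and 0 higher (median −0.13), with Ctsz and Cd68 at −0.27 and −0.28. Among glycolysis genes 6 of 15 were lower and 0 higher. Against the 4.18% higher and 6.73% lower of all genes, lower genes made up 23.1% of the Trem2 signalling list (0 higher and 3 lower of 13) and 24% of lipid genes (1 and 6 of 25). Complement and Fc receptor genes had 18.8% in each direction (3 and 3 of 16), and of heat-shock and early-response genes 40% were higher (8 and 1 of 20). The counts were 5 higher and 4 lower of 27 for cytokines and chemokines, 0 and 1 of 9 for MHC class II, 0 and 1 of 20 for the cell cycle and 2 and 0 of 13 for proposed miR-155 targets. Subunits of the respiratory chain were also among the lower genes with the smallest p, namely Uqcrh (−0.38), Atp5mpl (−0.44) and Ndufa3 (−0.43).

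These lower counts moved with which cells were kept. The count of MGnD genes that were lower was 21 of 42 in cells of at least 10000 UMIs, 3 without the library block, 16 without Control replicate 1, 21 without cKO replicate 1, and 4 of 38, with 2 higher, when barcodes with at least 2 markers of another class were left out. That last setting removed 449 of the 763 double-called cells. Higher interferon-stimulated genes numbered 47 to 49 in all of these settings. Lower calls over all genes fell as well, from 774 of 11495 to 325 of 11113 in cells of at least 10000 UMIs. They were 44 of 11495 without the library block and 39 of 9543 with other-class barcodes left out, so the fall was not particular to MGnD genes. Over all genes 635 were called without cKO replicate 1, 538 without Control replicate 1 and 831 without Control replicate 2, against 1254 with all 4 libraries. Markers of other cells moved in the same contrast: the monocyte marker Plac8 was at 2.28, 4.72, 7.54 and 4.38 CPM against 1.93, 2.68, 0.979 and 0.504 (log2 1.81 ± 0.45), and the summed 10 monocyte markers lay at 9.51 to 27.7 CPM in double-called and 7.78 to 13.4 CPM in MGnD-only cells. Ttr, a choroid plexus gene, was at 0.456, 1.77, 1.34 and 0 CPM against 140.3, 1242, 214 and 611 CPM. Their part in the results was not tested.

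Homeostatic genes, which mark resting microglia, were split against MGnD-only cells and mostly lower against interferon-only cells. Against MGnD-only cells 8 of 22 were higher and 2 lower in double-called cells (median 0.034). Tmem119, a microglial surface protein, was at 896, 758, 793 and 658 CPM in double-called cells, 690.2, 704, 570.4 and 562 in MGnD-only and 1141, 1243, 1108 and 1033 in interferon-only cells, lowest in MGnD-only cells in all 4 libraries (log2 0.31 ± 0.055 and −0.54 ± 0.056). Crybb1 was at 229.9, 148, 171 and 135 CPM against a mean of 116 ± 15.9 (SD, n = 4) in MGnD-only cells (log2 0.57 ± 0.078), and Cx3cr1, the fractalkine receptor, was higher by 0.22. P2ry12, a purinergic receptor, was at 1786, 1547, 1899.6 and 1549 CPM against 1568, 1657, 1615 and 1452 and did not pass the test (log2 0.11 ± 0.048, adjusted p = 0.166). With calls made at 2000 UMIs, which leave 28 double-called cells, Crybb1 and Cx3cr1 were at log2 −0.46 and −0.71, and 12 of the 22 genes were lower and 0 higher. All genes were shifted in that setting, with a median of −0.56 over 3700 genes, 314 lower and 44 higher. Crybb1 lay above that median and Cx3cr1 below it. In cells of at least 10000 UMIs 3 of 22 were higher, and with other-class barcodes left out 0 were called.

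Against interferon-only cells the differences were wider: 1692 genes were higher (14.7%) and 1488 lower (12.9%) in double-called cells. Of the 42 other MGnD genes 39 were higher and 0 lower, with a median of 1.27 against −0.032 over all genes, which the rule again makes a description. Apoe was at 1431, 1126, 1045 and 1457 CPM in interferon-only cells (log2 2.60 ± 0.077), and Ank, a pyrophosphate transporter, at 237, 339.5, 311 and 352 against 30.7, 22.9, 43.7 and 42.4 CPM (log2 3.15 ± 0.12). Trem2 was higher by 0.87 and Tyrobp by 1.31. Of lysosome genes 22 of 28 were higher and 2 lower (median 0.49), led by the cathepsins Ctsd (1.2) and Ctsb (1.18) and the cholesterol exporter Npc2 (1.17). Among lipid genes 16 of 25 were higher and 1 lower, with the fatty acid binding protein Fabp3 at 39.4, 40.2, 43.4 and 53.4 against 1.5, 0.859, 1.87 and 4.76 CPM. Glycolysis genes were higher in 12 of 15 cases and lower in 0, with Pkm at 1.51 and Gapdh at 1.27. The chemokines Ccl3 and Ccl4 were higher by 1.23 and 1.13, and the growth factor Csf1 by 1.57. Other genes with the smallest p were Ramp1, Gnas, Syngr1 and Serpine2, at log2 2.20, 1.56, 1.45 and 1.27.

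Most interferon, homeostatic and early-response genes tested were lower in double-called than in interferon-only cells. Of 51 interferon-stimulated genes outside the rule 35 were lower and 3 higher (median −0.36). Irf7 was at 91.6, 89, 82.6 and 63.3 CPM in interferon-only cells (log2 −0.62 ± 0.099). Among the GTPases and targets of interferon gamma 11 of 17 were lower and 2 higher, with Gbp7 at −1.15 and Irgm1 at −0.69. Of homeostatic genes 14 of 22 were lower and 1 higher, P2ry12 by log2 −0.47 ± 0.048 and P2ry13 by −0.67. Heat-shock and early-response genes were lower in 15 of 20 cases and higher in 1, among them Fos (−0.67) and Klf2 (−0.61). Proposed targets of miR-155 were lower in 8 of 13 cases and higher in 0, and cell-cycle genes were higher in 10 of 20 and lower in 0, with Cdk1 at 1.51. Other lower genes of small p were Ms4a6b, Ly6a, Txnip, Cebpd and the nuclear transcript Malat1 (17970.0, 19892, 19615 and 20426 against 28376, 30249, 27907 and 29369 CPM).

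Monocyte markers moved in this contrast too. Of 8 tested 7 were lower in double-called cells, and their summed level was 9.51 to 27.7 CPM against 30.9 to 203 CPM in interferon-only cells, with Plac8 at 2.28, 4.72, 7.54 and 4.38 against 49.7, 16.6, 42.6 and 11.4 CPM. None of the 10 monocyte markers was at 0 in either state, and their part in the result was not tested.

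**Figure D4:**
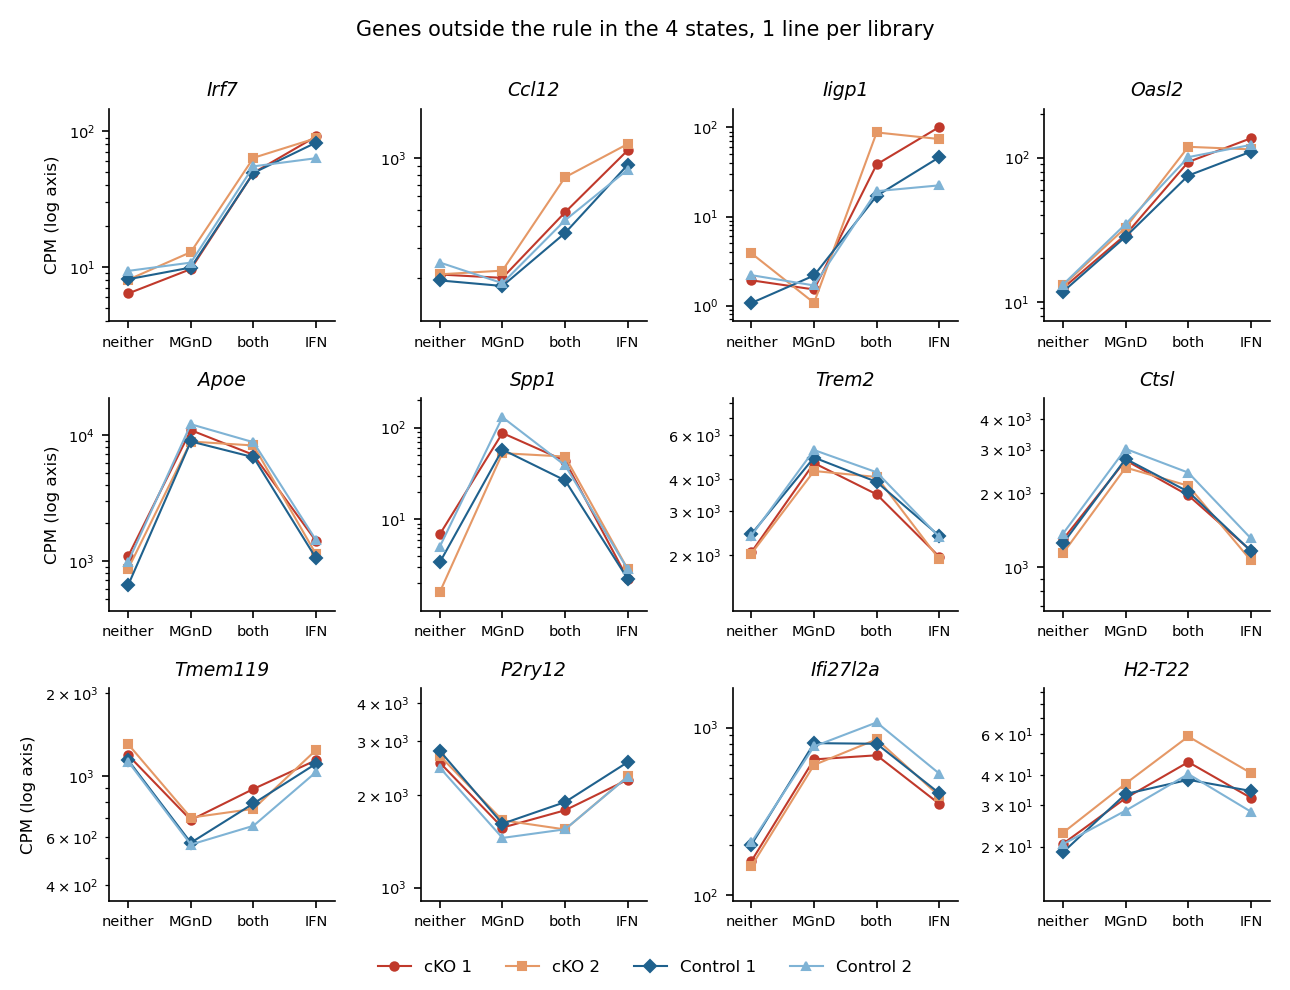
Levels of 12 genes outside the rule (vertical log axes, TMM-scaled CPM) in cells with neither call, MGnD-only, double-called (both) and interferon-only (IFN) cells, 1 line per library. Irf7, Ccl12 and Apoe lie between the single states in double-called cells, and H2-T22 is highest there in all 4 libraries.

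Placed against both single states at once, most genes that differed from each lay between them. Above MGnD-only and below interferon-only cells were 310 genes, and below MGnD-only and above interferon-only cells were 620. Only 7 genes were higher than in both and 10 lower than in both, and the following were named after their values were seen. H2-T22, a nonclassical MHC class I gene, was at 45.6, 58.5, 38.3 and 40.6 CPM, against 32.1, 37, 33.4 and 28.4 in MGnD-only and 32.1, 40.9, 34.4 and 28.1 in interferon-only cells (log2 0.43 ± 0.082 and 0.39 ± 0.096), the highest state in 4 of 4 libraries. The fit without the library block ended both calls (adjusted p = 0.0557 and 0.0518), and leaving out other-class barcodes ended the second (0.0528). Ifi27l2a, an interferon-stimulated gene also raised in MGnD cells, was at 685, 852, 802 and 1075 CPM, 647, 599, 809 and 774 in MGnD-only, 351, 391, 406 and 532 in interferon-only and 160.0, 149, 200.5 and 207 in cells with neither call. Its difference from MGnD-only cells (log2 0.26 ± 0.067) was lost without the library block and without Control replicate 2 (log2 0.20, adjusted p = 0.119). Cxcl9, a chemokine raised by interferon gamma, had log2 differences of 2.24 and 1.70, but a single cell held 312 of its 344 UMIs in the first cKO library and 208 of 458 in the second. Both Cxcl9 calls were lost by DESeq2 and in cells of at least 10000 UMIs. The other genes above both were Bst2, Sdc3, Aup1 and Larp1. Below both stood Lars2, a mitochondrial leucyl-tRNA synthetase, at 285, 356, 293 and 515 CPM against 532, 472, 519 and 788 and 465, 406, 438 and 672, with Ttr, Hist1h4d, Gpr34 and 6 others.

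A further contrast asked whether the double-called level of a gene was the sum of the log2 differences of the single states from cells with neither call. It was not for 445 of 11495 genes: 115 were higher than the sum (1.00%) and 330 lower (2.87%). Of 51 interferon-stimulated genes outside the rule 40 were lower and 0 higher (median −0.72 against −0.028 over all genes), and of 42 MGnD genes 21 were lower and 0 higher (median −0.42). The rule drew all of these states by detected genes, and their depths differ. Counts and p values for the programmes' own genes therefore describe the cells, and nothing is read from them. Genes that were higher in each single state than in cells with neither call were among those furthest below the sum. Oasl2 stood at 12.4, 13, 11.7 and 13.2 CPM in cells with neither call, 29.2, 32.7, 28.3 and 34.6 in MGnD-only and 136, 114, 109.9 and 122 in interferon-only cells, and its double-called level of 93.2, 119, 75 and 101 CPM was −1.66 ± 0.12 from the sum (adjusted p = 4.38e-10). Csf1 was at 27.5, 209, 55 and 169 CPM on average in the same order (−1.34 ± 0.13). Lgals3bp, Ifi27l2a, Fgl2, Phf11b and Ifi207 followed at −0.84, −0.97, −1.46, −1.19 and −2.07. On the other side stood Crybb1 (0.63), Bank1 (0.89) and Tmem119 (0.38), which were lower in MGnD-only cells.

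The count rested on depth and on single libraries. In cells of at least 10000 UMIs 8 genes were called, with 4 of the interferon-stimulated and 2 of the MGnD genes lower, and Oasl2 kept an adjusted p of 0.00588 there. Left-out libraries gave 89 genes without cKO replicate 1, 557 without cKO replicate 2, 72 without Control replicate 1 and 140 without Control replicate 2. The fit without the library block gave 25, and 86 were called with other-class barcodes left out.

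Second states that the rule did not use were read after thinning to 2000 UMIs. At least 2 of 4 MHC class II genes were detected in 14.4%, 17.4%, 2.85% and 13.3% of double-called cells, 12% ± 6.33 (SD, n = 4), against 10.9% ± 5.53 of MGnD-only and 5.56% ± 2.64 of interferon-only cells. Control replicate 1 was the low one. Double-called cells were above interferon-only cells in 4 of 4 libraries and above MGnD-only cells in 3 of 4. Cycling cells, with at least 3 of 16 cell-cycle genes, were 3.89% ± 0.593 of double-called, 3.35% ± 0.666 of MGnD-only and 2.23% ± 1.26 of interferon-only cells, highest in double-called cells in 4 of 4 libraries. These shares rest on few cells: 7, 3, 13 and 8 double-called, 17, 8, 35 and 18 MGnD-only and 7, 7, 4 and 1 interferon-only cells. In cKO replicate 2 the share was 3.26% of double-called against 3.04% of MGnD-only cells. Cytokine-high cells, with at least 3 of 7 genes such as Tnf and Ccl3, were 27.3% ± 4.71 against 24.8% ± 2.40 and 19.0% ± 4.94. Heat-shock-high cells, with at least 2 of 4 heat-shock genes, were 7.39% ± 4.67, above the 4.98% ± 3.61 of MGnD-only and below the 19.9% ± 11.1 of interferon-only cells in 4 of 4 libraries each. With 4 libraries the two-sided exact sign-flip permutation cannot give less than 0.125, and none of the 8 comparisons passed (adjusted p of at least 0.167). Without Control replicate 1 the mean difference from MGnD-only and from interferon-only cells was 2.46 and 8.42 points for MHC class II, 0.593 and 1.33 for cycling, 3.49 and 7.88 for cytokine-high and 2.29 and −14.7 for heat-shock-high cells. At full depth the MHC class II shares of double-called cells were 50%, 57.6%, 34.5% and 43.4%.

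The genotype comparison asked whether loss of miR-155 changed how many microglia pass both calls, and which genes they express. Double-called cells made up 4.43% ± 1.39 (SD, n = 2) of cKO and 7.24% ± 0.295 (SD, n = 2) of Control cells, a difference of −2.80 percentage points. The 2 genotypes did not overlap, and the exact two-sided permutation p was 0.333, the smallest that 2 libraries against 2 allow. At 2000 UMIs the difference was −0.0702 points (exact p = 0.667). Without cKO replicate 2, the library of the other run code, it was −1.82 points, and without Control replicate 1 it was −3.01. The MGnD call differed in the same direction (18.2% ± 6.86 in cKO against 27.5% ± 0.22 in Control), while the interferon call was at 11.7% ± 0.876 against 13.1% ± 1.2 (exact p = 0.667). Among MGnD-called cells the interferon share was 23.5%, 25.9%, 25.4% and 27.2%, with overlapping groups. The overlap ratio at 2000 UMIs differed by −0.35 on the log2 scale (exact p = 0.667), and its sign changed with the depth correction.

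Within double-called cells 1 of 10795 genes passed the genotype test (0.00926%), and 475 had an unadjusted p under 0.05. With 1 library left out the count was 10 without cKO replicate 1, 2 without cKO replicate 2, 40 without Control replicate 1 and 47 without Control replicate 2, in fits where the lone library is assumed to vary like the others. Groups did not overlap for 3611 genes (33.5%). The 1 gene that passed was Cdkn1a, which encodes the cell-cycle inhibitor p21, at 79.0 and 84.4 CPM in cKO and 30.3 and 24.8 CPM in Control (log2 1.55 ± 0.14 SE, adjusted p = 8.50e-04). In cKO replicate 1 its 347 UMIs came from 85 of 194 double-called cells, and in cKO replicate 2 a single cell held 58 of 143. It passed without each library in turn (log2 1.43 to 1.74), and did not pass with other-class barcodes left out (log2 1.18, adjusted p = 0.407). The same gene was at 61.5, 61.6, 46.5 and 34 CPM in MGnD-only and 119, 72.7, 40.7 and 33.3 CPM in interferon-only cells, and its genotype difference in double-called cells did not differ from theirs by the test of that difference (adjusted p = 0.559 and 1). The first of these passed without cKO replicate 1 (adjusted p = 0.0128) and without cKO replicate 2 (0.0304).

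Other genes of interest missed the threshold. Iigp1 was at 38.5 and 88.0 CPM in cKO and 17.1 and 19.3 in Control (log2 1.69 ± 0.30, adjusted p = 0.135), and Cx3cr1 at 2046, 1881, 4045 and 3316 CPM (log2 −0.89 ± 0.16, adjusted p = 0.135). The groups did not overlap for either gene, as was so for 33.5% of all genes. Hspa1a had the next smallest value at log2 1.68 ± 0.25 (adjusted p = 0.0639). Irf7, Trem2 and P2ry12 stood at log2 0.097 ± 0.15, −0.094 ± 0.15 and −0.033 ± 0.15. In each of the gene lists 0 genes passed. The median difference was 0.56 over 15 interferon-gamma GTPases and targets, 0.13 over 50 interferon-stimulated genes, −0.078 over 41 MGnD genes and 0.30 over 20 heat-shock and early-response genes, against 0.0049 over all genes. All 15 GTPases and all 20 heat-shock and early-response genes had values above 0, and none of the 35 passed the test. These directions were not particular to double-called cells. In MGnD-only cells 10 of 12 GTPases and targets (median 0.23, 0 called) and 20 of 20 heat-shock and early-response genes (0.36, 2 called) lay above 0. In interferon-only cells 14 of 15 (0.66, 4 called) and 19 of 20 (0.30, 2 called) did.

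The genotype difference of double-called cells was then set against that of each single state. Against MGnD-only cells 0 of 10888 genes differed (0%) by edgeR and 0 by DESeq2, with 459 and 25 at an unadjusted p under 0.05. Without cKO replicate 1 edgeR called 58. Against interferon-only cells 5 genes differed (0.0459%), 4 of them of MHC class II presentation, and 34 without cKO replicate 1. H2-Ab1 was at 146, 211, 51.6 and 104 CPM in double-called cells, higher in both cKO libraries, and at 99.1, 84.1, 127 and 239.6 CPM in interferon-only cells, higher in both Control libraries (difference of log2 2.23 ± 0.21, adjusted p = 4.70e-07). Cd74, the invariant chain, was at 403, 547, 128 and 349 and 222, 217, 273 and 431 CPM (1.79 ± 0.22), and H2-Eb1 and H2-Aa differed by 2.31 and 2.53. In MGnD-only cells H2-Ab1 was at 121, 169, 75.9 and 89.4 CPM, in the same order as in double-called cells.

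In interferon-only cells few barcodes carried most of these molecules, while in double-called cells they were spread more widely. In interferon-only cells barcodes with at least 2 markers of dendritic cells, monocytes or border-associated macrophages, 7 to 14 per library, held 67.5%, 59.0%, 94.9% and 59.1% of the MHC class II UMIs, and in double-called cells 22.5%, 3.24%, 34.6% and 1.63%. The median cell held 157, 206, 92.7 and 127 CPM of MHC class II UMIs among double-called cells and 0 in all 4 libraries among interferon-only cells. Among MGnD-only cells it held 180, 222, 103 and 101 CPM, so such a median was not particular to double-called cells. Interferon-only cells were shallower, and the part of depth in their median was not tested. Without those barcodes the summed MHC class II level was 649, 919, 156 and 520 CPM in double-called and 176, 214, 39.8 and 443 CPM in interferon-only cells, where the groups overlap. Without Control replicate 1 the 4 differences still passed (log2 2.19 for H2-Ab1, 1.45 for Cd74, 1.91 for H2-Eb1 and 1.82 for H2-Aa). With all other-class barcodes left out the difference of H2-Ab1 was −0.52, of Cd74 −0.24, of H2-Aa −1.47 and of H2-Eb1 0.076, and none passed. The fifth gene, Cd209a, a dendritic cell lectin, had 22 UMIs in double-called cells, all in a single barcode of cKO replicate 1.

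**Figure D5:**
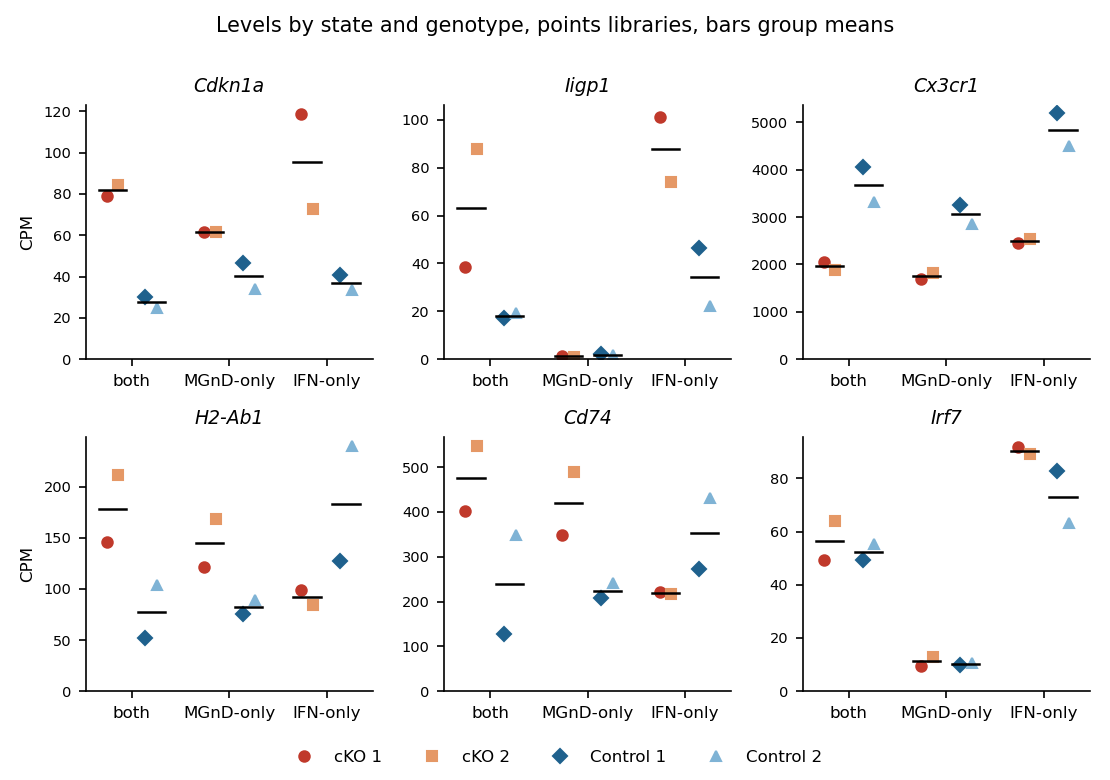
TMM-scaled CPM (vertical axes, starting at 0) of 6 genes in double-called (both), MGnD-only and interferon-only (IFN-only) cells, with cKO libraries left and Control libraries right in each pair. Points are libraries and bars are means of 2, and Cdkn1a shows 79.0 and 84.4 CPM in cKO against 30.3 and 24.8 CPM in Control double-called cells.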

How the data were processed

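The authors deposited raw UMI counts, 1 value per feature and barcode. The submitters' processing notes name Cell Ranger 4.0.0 and mm10. They were not normalized and still held empty droplets, over 32372 features. Deposited barcode and feature names (other, no measurement) only label the matrices. The rule's members, the gene lists and the tests were chosen with earlier results of these data known. Scrublet (scanpy 1.11.5) scored doublets, and the highest scores were marked at 0.8% per 1000 cells in place of its own threshold. Marked barcodes were kept and left out as an alternative.

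UMIs were summed per library and state (16 sums, or 12 for genotype by state) and fitted with edgeR 4.0.16 (TMM, filterByExpr, quasi-likelihood F test, two-sided, library as a block in the state fits), tested on simulated data first. Genotype within double-called cells was fitted on 4 sums with no block. DESeq2 1.42.0, RLE factors, no filter, thinning, deeper cells, left-out barcodes and left-out libraries were alternatives. Genes were named by the smallest p among those called in the same direction in every library with an average log2 CPM of at least 4, 8 per direction, and up to 3 per list, plus the rule genes and P2ry12, Tmem119, Cx3cr1, Apoe, Spp1, Trem2, Irf7, Xist, Mir155hg, Cdkn1a and Iigp1. Genes beyond both single states were named after their values were seen. A gene that this choice also names is not reported here. Predicted, ribosomal and mitochondrial genes and pseudogenes were not named. Shares were compared by exact permutation over libraries. Kept cells held 24997674 to 37883654 UMIs per library, and intervals cover counting error only.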

Additional observations from a re-analysis of the deposited data

Results flagged for a closer look

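The genotype difference of double-called cells differed from that of interferon-only cells for 5 genes, by the interaction term of edgeR's quasi-likelihood fit over 12 sums. The differences (log2 cKO against Control in double-called cells minus the same in interferon-only cells) were 2.23 ± 0.21 SE for H2-Ab1 (adjusted p = 4.70e-07), 2.31 ± 0.28 for H2-Eb1 (3.13e-05), 1.79 ± 0.22 for Cd74 (3.72e-05), 2.53 ± 0.32 for H2-Aa (4.83e-05) and 8.18 ± 1.47 for Cd209a (0.0212). By DESeq2 1 of the 5, H2-Ab1, passed. With barcodes holding at least 2 markers of another class left out, the 4 MHC class II genes lost their calls, and 3 of them turned direction (H2-Ab1 log2 −0.52, Cd74 −0.24 and H2-Aa −1.47, with H2-Eb1 at 0.076). Cd209a lost its call without Control replicate 1 (log2 7.51) and without Control replicate 2 (log2 8.46), and its 22 UMIs in double-called cells lay in a single barcode.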

How the results depend on the processing

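The difference in the share of double-called cells kept its direction in all settings run, from −4.12 to −0.0702 points, and without single libraries ranged from −3.78 to −1.82. The overlap ratio was 2.06 at raw depth with no depth correction, otherwise 0.994 to 1.40. Its genotype difference (log2 −0.35) turned to 0.228 with at least 5 of each list, 0.0846 over 10 depth classes, 0.0555 over 50, 0.0628 at raw depth and 0.0913 at 5000 UMIs, and ranged from −0.703 to 0.00406 without single libraries. Against MGnD-only cells 1254 genes became 205 with no library block, 358 after thinning to 2000 UMIs, 228 with other-class barcodes left out, 609 in cells of at least 10000 UMIs and 538 to 1440 without single libraries. Against interferon-only cells 3180 became 260 after thinning. The 445 non-additive genes became 25 with no library block, 86 with other-class barcodes left out, 8 at 10000 UMIs or more and 72 to 557 without single libraries. The single genotype call became 0 after thinning, 5 without marked doublets, 3 with other-class barcodes left out, 5 at 10000 UMIs or more, 3 by DESeq2, 64 with no filter and 2 to 47 without single libraries. With replicate number as a block it became 5, although the samples share only a number (deviations of same-numbered libraries correlated at r = 0.0844). Genotype by state gave 1 gene against MGnD-only cells at 10000 UMIs or more and 1 to 58 without single libraries. Against interferon-only cells it gave 1 with other-class barcodes left out, 8 at 10000 UMIs or more, 1 by DESeq2 and 4 to 34 without single libraries. The MHC class II share against MGnD-only cells ranged from −0.868 to 2.46 points without single libraries.

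Signs turned for Crybb1 (−0.461 against MGnD-only and −0.298 from the sum) and Cx3cr1 (−0.713) after thinning. The medians over all genes in those thinned contrasts were −0.564 against MGnD-only and −0.622 from the sum, and Crybb1 lay above both. Signs also turned for H2-Ab1 (−0.523), Cd74 (−0.241) and H2-Aa (−1.47) in the genotype by state difference with other-class barcodes left out. Of 476 values of the 40 named genes called against MGnD-only cells, 416 kept call and direction, as did 508 of 542 against interferon-only cells and 138 of 168 for non-additive genes. The cause of these changes was not tested. Depth limits the equal-depth overlap, which rests on 28 cells. In counts simulated for the genotype test within double-called cells (2 libraries a group, 10880 genes), 80 of 108 genes changed by log2 1 were recovered and 87 of 90 changed by log2 2. False calls numbered 13. The simulated spread came from the state fit with library as a block, so it leaves out much of the variation between libraries. The genotype test has no such block, and its recovery in the real counts can be lower. The settings at 5000 and 10000 UMIs and over 50 depth classes, those with deeper cells, the programme and rule gene levels without single libraries, and the genotype fits with other-class barcodes left out were chosen after seeing the data.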
